A study of Mus musculus with 2 samples.

Results

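Regulator of G protein signalling (RGS) genes were followed in endothelial cells (ECs), mural cells (pericytes, PCs, with smooth muscle) and intermediate cells of the mouse stria vascularis, the vascularised ion-pumping epithelium of the cochlear lateral wall. The members were 7 listed genes, Rgs2, Rgs3, Rgs4, Rgs5, Rgs10, Rgs12 and Rgs16, all found by Ensembl identifier among the 27040 genes listed in both deposited matrices. Each of the 2 single-cell libraries came from the stria of 10 mice (20 cochleae) aged 1 to 3 months, pooled before capture. The Tie2-GFP mice carried green fluorescent protein under the promoter of Tie2 (Tek), a receptor of ECs, and the NG2-DsRed mice carried red fluorescent protein under that of NG2 (Cspg4), a proteoglycan of PCs. No treatment was named for either line, and sorting for the reporter was described only for when enrichment was needed, and other strial cells were present in both libraries. A genotype was 1 library of pooled animals. No test between animals was therefore possible, and every interval given is a 95% interval that covers counting error only.

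G protein-coupled receptors pass a signal by loading a G-alpha subunit with GTP. RGS proteins bind the loaded subunit and speed the hydrolysis of GTP, which ends the signal, so they set how strongly and for how long a vessel cell answers to endothelin, sphingosine phosphate, thromboxane or angiotensin. Rgs2, Rgs3, Rgs4, Rgs5 and Rgs16 belong to the subfamily built around the RGS domain that acts on Gi and Gq proteins, Rgs10 is a small member best known from microglia and other myeloid cells, and Rgs12 is a large scaffold with further domains. Rgs5 is widely used as a PC marker, and the study itself used it so. It was not used here to define any class.

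Cells were classed by genes other than the members. A barcode was endothelial with a unique molecular identifier (UMI) of at least 4 of 6 genes (Pecam1, Cdh5, Cldn5, Flt1, Egfl7, Ramp2). It was mural with at least 2 of 3 (Pdgfrb, Vtn, Notch3) and at most 1 endothelial gene, and intermediate with all 3 of Dct, Tyr and Kcnj10. Mural barcodes were contractile with at least 3 summed UMIs of Acta2, Tagln and Myh11. Of 633 barcodes of the Tie2-GFP library (median 6956 UMIs), 368 were endothelial, 84 intermediate and 2 mural. Of 201 barcodes of the NG2-DsRed library (median 4322 UMIs), 54 were endothelial, 94 mural (40 contractile, 54 non-contractile) and 23 intermediate. The libraries shared 0 barcodes.

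Most markers outside the rules followed the labels, and the main exception touches most results below. All 6 endothelial check markers (Tek, Kdr, Esam, Emcn, Ptprb, Slc2a1) were found in the ECs of both libraries, summing to 4576 CPM (UMIs per 1000000 UMIs of the class) in Tie2-GFP and 3407 CPM in NG2-DsRed. In NG2-DsRed mural barcodes they summed to 650.3 CPM, in 77 of 94, with Tek and Kdr at 0. The 6 mural check markers (Cspg4, Kcnj8, Abcc9, Des, Higd1b, Ndufa4l2) summed to 4474 CPM in NG2-DsRed mural barcodes. In intermediate barcodes 4 of them were at 0 in NG2-DsRed and 5 in Tie2-GFP. The others still gave 138.8 CPM in NG2-DsRed intermediate barcodes, in 18 of 23. In Tie2-GFP intermediate barcodes Cspg4 alone gave 56.4 CPM, in 31 of 84. Of 5 contractile check markers, Cnn1 and Actg2 were at 0 in contractile mural barcodes. Of 5 intermediate check markers 4 were found in intermediate barcodes of both libraries, with Tyrp1 at 0. A single Tie2-GFP EC held 8274 of the 8319 UMIs of 4 haemoglobin genes in its class. The main exception was that 29 of 54 ECs of the NG2-DsRed library and 24 of 368 of the Tie2-GFP library also carried at least 2 of the 3 mural genes. Whether such a barcode held 1 cell or more was not settled by the doublet caller, which marked 5 of the NG2-DsRed and 0 of the Tie2-GFP ECs, and the main counts and ratios of members that rest on ECs are given with and without these barcodes.

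Of the members, 4 lie on chromosome 1, and Rgs4 and Rgs5, both higher in mural cells than in ECs, sit side by side. In the GRCm38 build (mm10) Rgs5 spans chr1:169655501-169695813 on the plus strand and Rgs4 chr1:169741477-169747642 on the minus strand, with 45663 bases and no other coding gene between them. Rgs16 spans chr1:153740349-153745468 next to Rgs8, and Rgs2 spans chr1:143999338-144004161 with Rgs13 as a neighbour, 134492 bases away. Rgs8 gave 1 UMI and Rgs13 gave 0 over all classes. No annotated gene overlaps Rgs2, Rgs4 or Rgs5 on either strand. Rgs10 and Rgs12 overlap Gm15503 and Mir3097 on their own strand, and how reads in the overlaps were counted was not checked. The 250 bases upstream of the RefSeq start (GRCm38.p6) are shown for Rgs4, Rgs5 and Rgs16, the leading member of Tie2-GFP ECs. These 3 genes differed between classes, as did Rgs3, whose windows are not shown. Capitals mark CCAAT (as ATTGG on the other strand), TATAAA and GGGCGG (as CCGCCC on the other strand, with overlapping matches in Rgs16). The windows are chr1:169747643-169747892 (minus strand) for Rgs4, chr1:169655251-169655500 for Rgs5 and chr1:153740103-153740352 for Rgs16, each written 5′ to 3′ in the direction of the gene.

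Rgs4: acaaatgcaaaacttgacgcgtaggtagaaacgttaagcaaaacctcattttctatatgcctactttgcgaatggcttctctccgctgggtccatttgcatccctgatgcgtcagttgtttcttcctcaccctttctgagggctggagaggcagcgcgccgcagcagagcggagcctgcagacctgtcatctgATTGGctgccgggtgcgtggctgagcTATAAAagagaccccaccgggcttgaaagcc
Rgs5: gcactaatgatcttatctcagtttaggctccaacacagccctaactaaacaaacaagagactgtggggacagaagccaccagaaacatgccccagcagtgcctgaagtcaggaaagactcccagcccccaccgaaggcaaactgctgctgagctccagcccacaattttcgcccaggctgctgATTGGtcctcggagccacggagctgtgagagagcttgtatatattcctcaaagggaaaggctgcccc
Rgs16: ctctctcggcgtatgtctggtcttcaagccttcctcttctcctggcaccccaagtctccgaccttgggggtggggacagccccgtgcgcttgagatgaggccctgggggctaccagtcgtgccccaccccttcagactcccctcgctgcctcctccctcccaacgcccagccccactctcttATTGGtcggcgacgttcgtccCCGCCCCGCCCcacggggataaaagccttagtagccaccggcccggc

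CCAAT was present on either strand in all 4 members of chromosome 1, between -57 and -53 in Rgs4, -67 and -63 in Rgs5, -68 and -64 in Rgs16 and -94 and -90 in Rgs2, counted from the start site. The motif stood in 33.8% of 32817 promoter windows of the same length. TATAAA stood between -31 and -26 in Rgs4 and in neither the Rgs5 nor the Rgs16 window, against 12.4% of all windows. GGGCGG stood in Rgs16 and Rgs2 and in neither Rgs4 nor Rgs5, against 32.7%. These matches describe letters and not sites.

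Rgs5 dominated the RGS transcripts of mural cells, and Rgs16 led in Tie2-GFP ECs but not in NG2-DsRed ECs. Of the 3078 UMIs of the 7 members in NG2-DsRed mural barcodes, Rgs5 gave 94.7% (95% interval 93.9 to 95.5) and Rgs4 3.18% (2.59 to 3.87). In Tie2-GFP ECs with at most 1 mural gene, Rgs16 gave 78.4% (77.0 to 79.7) of 3661 UMIs, Rgs3 8.99% and Rgs5 8.19%. With all 368 ECs of that library Rgs16 gave 54.5% and Rgs5 35.9%. In NG2-DsRed ECs Rgs5 led, with 86.8% (85.3 to 88.2) of 2139 UMIs against 8.09% for Rgs16, and with at most 1 mural gene it gave 79.7% and Rgs16 11.5% of 390 UMIs. Intermediate barcodes held little of any member: the 7 genes summed to 44.8 CPM (33.6 to 58.4) in Tie2-GFP, against 1952 CPM in ECs of that library and 1272 CPM (1231 to 1314) in those with at most 1 mural gene. The 22 Rgs12 UMIs were the most of the 54 there. Levels compared between genes are CPM of a 3′ assay and not per transcript length.

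**Figure D1:**
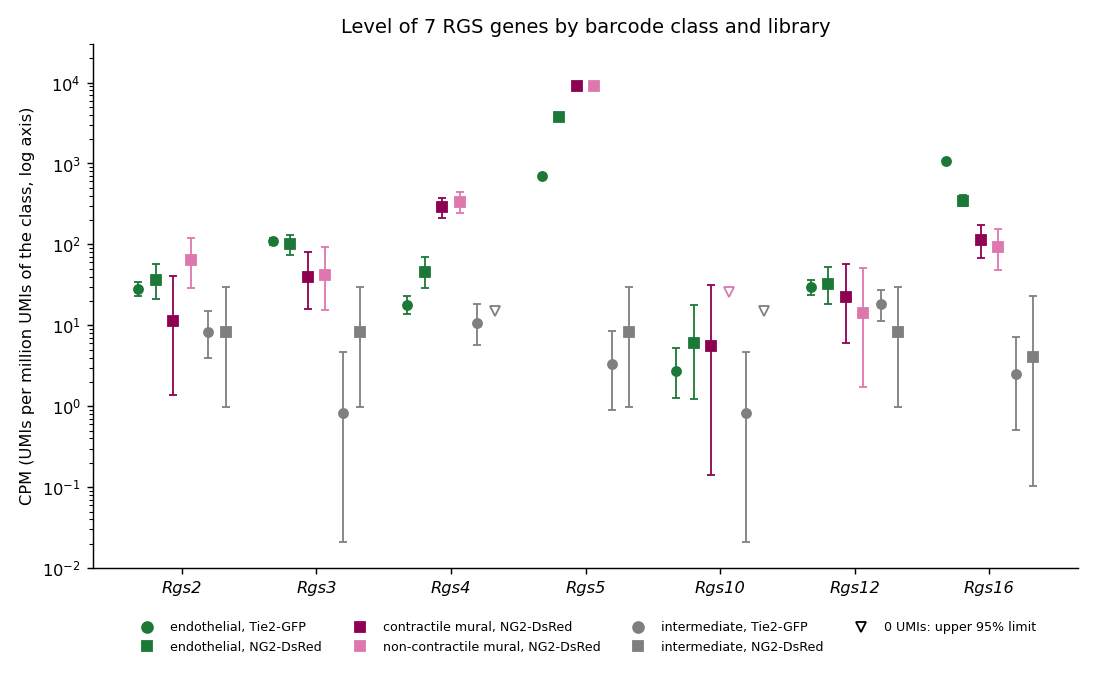
CPM of each member (log axis) by barcode class and library, with exact Poisson 95% intervals. Open triangles give the upper limit where a class had 0 UMIs. Rgs5 is highest in both mural groups, at 9089 and 9152 CPM, and Rgs16 in the Tie2-GFP ECs, at 1064 CPM.

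Rgs5, a brake on Gq and Gi signals in vascular smooth muscle and PCs, was present in every mural barcode. All 94 NG2-DsRed mural barcodes carried it, with 3.27, 85.6 and 354 UMIs per 10000 UMIs in the lowest, median and highest barcode and 9117 CPM (8789 to 9454) over the class. The EC level in the same library was 3729 CPM (3561 to 3902), in 49 of 54 barcodes, with 0, 27.7 and 137 UMIs per 10000. The per-barcode ranges thus overlapped widely. The class level was 2.45-fold higher in mural cells (2.31 to 2.59). Without the ECs that carried at least 2 mural genes the log2 ratio rose from 1.29 to 2.42 (2.25 to 2.60). In intermediate barcodes 2 UMIs in 23 barcodes gave 8.16 CPM (0.989 to 29.5), in a class of higher median depth (10383 against 3017.5 UMIs).

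Rgs4, a neighbour of Rgs5 that acts on the same G proteins, was the other member higher in mural cells than in ECs, at a far lower level. It was not confined to mural cells: 10 Tie2-GFP barcodes of no class with marginal-cell markers, described below, had 323.7 CPM. It had 98 UMIs in 42 of 94 mural barcodes (44.7%, 34.4 to 55.3), or 306.4 CPM (249 to 373), and no more than 7 UMIs in any of them. ECs of the library had 23 UMIs in 10 of 54 barcodes (18.5%), or 46.2 CPM (29.3 to 69.3), and intermediate barcodes 0 of 23, which allows a share of barcodes with a UMI of up to 13.04% (3 of 23). With each barcode thinned to 2575 UMIs (59 of 94 mural barcodes and 52 of 54 ECs were deep enough) the shares were 42.6% and 8.38%. Mural cells were 6.63-fold higher than ECs (4.18 to 10.9). The log2 ratio of 2.73 was 3.49 (2.21 to 5.14) without the ECs with at least 2 mural genes. The 25 remaining ECs held 5 Rgs4 UMIs, all in 1 barcode.

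Rgs16, a small RGS protein whose gene is switched on by stimulation in several cell types, showed the opposite order. In Tie2-GFP ECs it had 3493 UMIs in 304 of 368 barcodes, or 1064 CPM (1029 to 1099), with 0, 6.53 and 88.2 UMIs per 10000 in the lowest, median and highest barcode. NG2-DsRed ECs had 347.6 CPM (298 to 403) in 35 of 54, and mural barcodes 103.2 CPM (71.0 to 145) in 18 of 94. Of the 33 mural UMIs, 11 lay in 1 barcode, and the mural and EC ranges overlapped. Intermediate barcodes had 3 UMIs in 84 barcodes (3.57%, median 15339.5 UMIs per barcode against 7502.5 in ECs) in Tie2-GFP and 1 UMI in 23 in NG2-DsRed. Thinned, the shares were 69.3%, 42.5%, 10.3%, 0.524% and 1.05% in these 5 groups. The log2 ratio of mural cells to ECs in the NG2-DsRed library was -1.75 (-2.34 to -1.21), and -1.25 (-1.95 to -0.57) without the ECs with at least 2 mural genes.

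**Figure D2:**
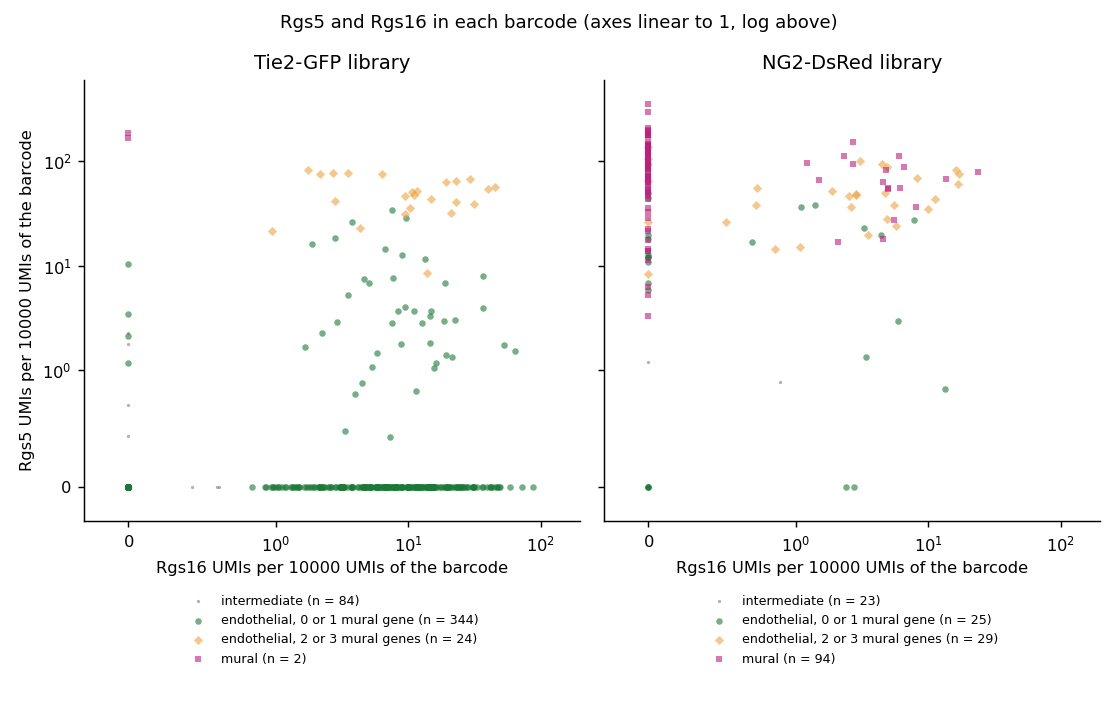
Rgs5 against Rgs16 in every classed barcode, as UMIs per 10000 UMIs of the barcode (axes linear to 1 and logarithmic above). Most Tie2-GFP ECs lie along the lower edge, with Rgs16 and without Rgs5. The 94 mural barcodes of the NG2-DsRed library all lie at or above 3.27 on the Rgs5 axis, mostly at 0 Rgs16, and NG2-DsRed ECs spread between these groups, 33 of 54 with both genes.

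Rgs3, which acts on Gi and Gq, was found in ECs of both libraries. It had 357 UMIs in 207 of 368 Tie2-GFP ECs, or 108.7 CPM (97.7 to 121), and 50 UMIs in 30 of 54 NG2-DsRed ECs, or 100.5 CPM (74.6 to 132). Mural barcodes had 13 UMIs in 12 of 94, or 40.6 CPM (21.6 to 69.5), which is 2.47-fold lower than ECs of the library (1.32 to 4.96). Without the ECs with at least 2 mural genes the log2 ratio was -1.35 (-2.49 to -0.26). Intermediate barcodes had 1 UMI (Tie2-GFP) and 2 UMIs (NG2-DsRed). The 2 EC levels differed by a log2 ratio of 0.11 (-0.32 to 0.57), an interval that holds 0.

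Rgs12, Rgs2 and Rgs10 were sparse. Rgs12 stood at 29.5 CPM (24.0 to 36.0) in Tie2-GFP ECs, 32.1 CPM (18.4 to 52.2) in NG2-DsRed ECs, 18.8 CPM (6.88 to 40.8) in mural barcodes, 18.2 CPM (11.4 to 27.6) in Tie2-GFP intermediate barcodes and 8.16 CPM (0.989 to 29.5), on 2 UMIs, in NG2-DsRed intermediate barcodes. Rgs2, a regulator with a preference for Gq, had 93 UMIs in 52 of 368 Tie2-GFP ECs (28.3 CPM, 22.9 to 34.7), 18 UMIs in 7 of 54 NG2-DsRed ECs (36.2 CPM, 21.4 to 57.2) and 11 UMIs in 6 of 94 mural barcodes (34.4 CPM, 17.2 to 61.5), levels whose intervals overlap. A single Tie2-GFP EC barcode with all 3 mural genes held 19 of the 93 Rgs2 UMIs, 21 of the 59 Rgs4 UMIs of that class and 187 Rgs5 UMIs, and without it Rgs2 stood at 22.7 CPM and Rgs4 at 11.7 CPM. Rgs10 had 9 UMIs in Tie2-GFP ECs, 3 in NG2-DsRed ECs and 1 in mural barcodes, and its differences were not detectable at this depth. Macrophage check markers, of cells in which Rgs10 is best known, numbered 2 UMIs in Tie2-GFP ECs, 7 in NG2-DsRed ECs and 1 in mural barcodes.

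Between mural cells and ECs of the NG2-DsRed library, 4 of the 6 members with at least 20 UMIs over both classes differed by at least 2-fold, Rgs4 and Rgs5 higher and Rgs3 and Rgs16 lower in mural cells. Of all 6247 genes with as many UMIs, 30.4% did so (16.2% higher, 14.2% lower). The share among the members was above that of all genes, on 6 genes. The members were chosen with earlier results of these data known, so no enrichment can be read from it. A gene that is found mainly in 1 class reaches the minimum of 20 UMIs through that class, so these counts are descriptions. Rgs2 (log2 ratio -0.07, -1.30 to 1.09) and Rgs12 (-0.78, -2.42 to 0.65) stayed within 2-fold, with intervals that reach past it. The median log2 ratio was -0.42 over the 6 members and 0.09 over all genes. Without the 29 ECs with at least 2 mural genes the same 4 members passed, of 4 that still had 20 UMIs. Of all 4631 genes judged there 37.7% passed (22.6% higher, 15.1% lower).

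**Figure D3:**
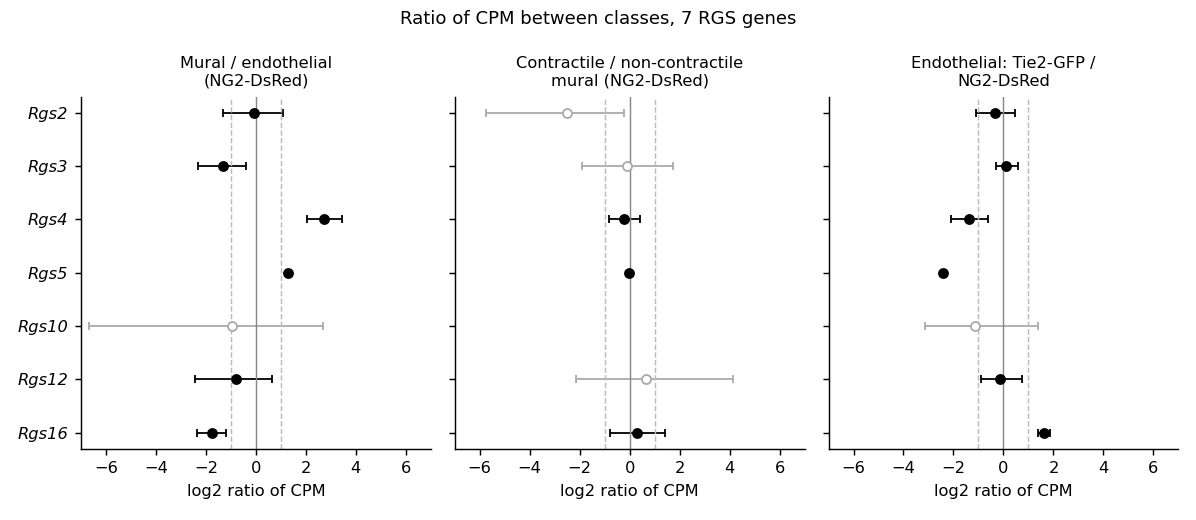
log2 ratio of CPM of each member for 3 comparisons, with exact conditional binomial 95% intervals. Dashed lines mark 2-fold, open grey points had under 20 UMIs over both classes, and Rgs10 is left out of the middle panel because 1 class had 0 UMIs. Rgs4 and Rgs5 lie right of the lines in the left panel, and none of the filled points of the middle panel leaves the lines.

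Contractile and non-contractile mural cells did not differ by 2-fold in any member that could be judged. Rgs4, Rgs5 and Rgs16 had 20 UMIs over both classes, and 0 of these 3 passed, against 20.2% of 3107 genes (9.27% higher, 10.9% lower). With 3 genes this count cannot be told from the share of all genes. Rgs5 stood at 9089 CPM in the 40 contractile and 9152 CPM in the 54 non-contractile barcodes, a log2 ratio of -0.01 (-0.12 to 0.10). The interval lies well under 2-fold, but it covers counting error only and not the spread between barcodes. Without the barcode with most Rgs5 UMIs in each class (324 UMIs in the contractile one) the log2 ratio was -0.21 (-0.32 to -0.09). With the limit raised to 6 contractile UMIs it was also -0.21. Rgs4 stood at 286.5 CPM in contractile and 331.4 CPM in non-contractile barcodes, a log2 ratio of -0.21 (-0.81 to 0.39). The Rgs16 levels of 112.4 and 91.7 CPM gave a log2 ratio of 0.29 (-0.79 to 1.42), an interval too wide to bound the difference at 2-fold and a value that turned to -0.61 without the barcode with most Rgs16 UMIs in each class. Rgs2 had 2 UMIs in contractile and 9 in non-contractile barcodes.

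Across bins of contractile UMIs none of these 3 members rose or fell steadily, but Rgs5 was lowest in the most contractile bin. Rgs5 was 8886 CPM in the 40 mural barcodes with 0 contractile UMIs, 9650 CPM at 1 to 2 UMIs, 11842 CPM at 3 to 5, 10363 CPM at 6 to 20 and 7658 CPM (7133 to 8211) above 20, the last being the lowest bin. In that bin 1 barcode held 324 of the 791 UMIs, and without it the level was 4961 CPM (4521 to 5432), while the median barcode had 28.3 UMIs per 10000 against 86.4 to 119 in the other bins. Without the barcode with most Rgs5 UMIs the other 4 bins ran from 8616 to 11131 CPM. The values just outside and just inside the limit of 3 were thus 9650 CPM (8802 to 10557) and 11842 CPM (10739 to 13028). Rgs4 ran from 102.3 to 420.9 CPM with no order, the highest bin (3 to 5 UMIs) being 252.3 CPM without 1 barcode with 7 of its 15 UMIs. For Rgs16 the highest bin (6 to 20 UMIs, 332.6 CPM) had 11 of its 13 UMIs in 1 barcode and was 58.0 CPM without it.

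**Figure D4:**
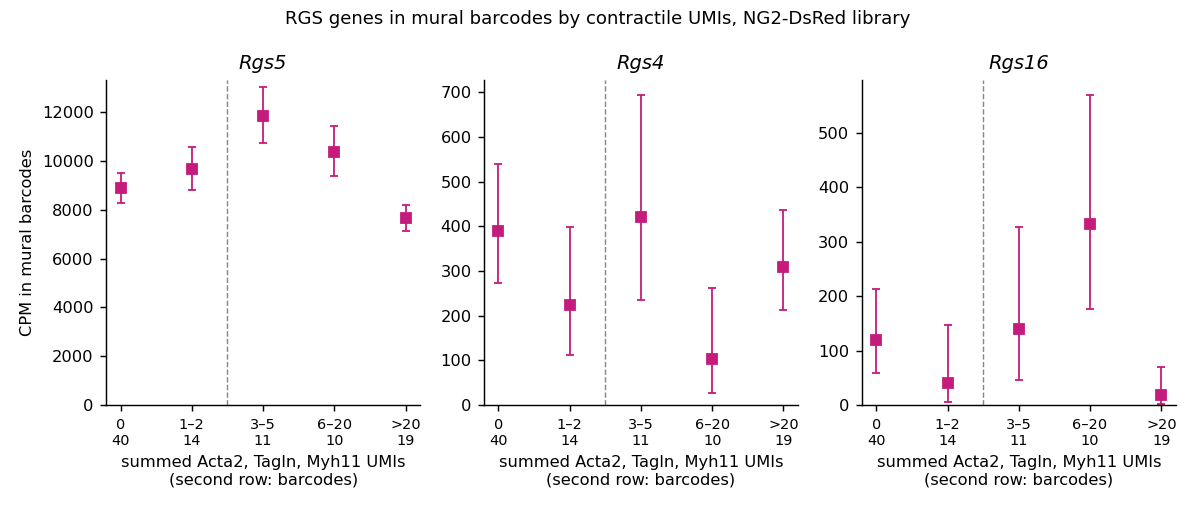
CPM of Rgs5, Rgs4 and Rgs16 in NG2-DsRed mural barcodes by summed Acta2, Tagln and Myh11 UMIs, with exact Poisson 95% intervals and the number of barcodes under each bin. The dashed line marks the limit between non-contractile and contractile barcodes. Rgs5 is highest at 3 to 5 UMIs (11842 CPM) and lowest above 20 (7658 CPM, or 4961 CPM without 1 barcode with 324 UMIs).

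Against intermediate cells, a pigment-related lineage of the same tissue, the EC members stood far apart. In Tie2-GFP 4 of 6 judged members were at least 2-fold higher in ECs, where 29.3% of 10406 genes were higher and 19.5% lower (48.7% either way). Without the 24 ECs with at least 2 mural genes 4 of 5 judged members were higher, with 28.7% of 10137 genes higher and 19.8% lower. Members found mainly in ECs reach the minimum of 20 UMIs through that class, so these counts are descriptions. The log2 ratios were 8.74 (7.19 to 11.0) for Rgs16, 7.73 (6.37 to 9.60) for Rgs5, 7.03 (4.55 to 12.3) for Rgs3 and 1.77 (0.83 to 2.88) for Rgs2. The Rgs2 value rested on 10 UMIs in intermediate barcodes, and it was -0.34 (-1.74 to 1.57) when the mitochondrial limit was applied to them too, which left 6 barcodes. For Rgs5 the log2 ratio was 4.97 (3.60 to 6.86) without the 24 ECs with at least 2 mural genes. Rgs4 changed order with those 24, from 18.0 CPM to 1.04 CPM (0.215 to 3.05) in ECs, against 10.8 CPM (5.74 to 18.4) in intermediate barcodes, where 1 barcode with marginal-cell markers held 6 of the 13 UMIs.

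In the NG2-DsRed library Rgs2, Rgs3, Rgs4, Rgs5 and Rgs16, the 5 judged, were at least 2-fold higher in ECs than in intermediate barcodes (27.9% of 5765 genes higher, 17.2% lower, 45.1% either way). Rgs5 had the highest log2 ratio there (8.84), before Rgs16 (6.41) and Rgs3 (3.62). Without the ECs with at least 2 mural genes Rgs3, Rgs5 and Rgs16 still reached 20 UMIs and were higher, at 3.67, 7.70 and 5.91. Of 3746 genes judged that way 25.5% were higher and 22.4% lower. In mural barcodes Rgs4, Rgs5 and Rgs16, the 3 judged, were higher too, against 27.2% of 4968 genes higher and 17.4% lower (44.6% either way). The members judged in this library reached 20 UMIs mainly through ECs or mural cells, so these counts too are descriptions. Rgs5 had a log2 ratio of 10.12 (8.27 to 13.2) in that comparison, or 5.19 when the 2 barcodes that met both class rules were kept, and Rgs16 4.66 (2.08 to 10.0). Rgs4 was 25.0-fold higher with the intermediate class set to 3 UMIs in place of 0, with an exact lower limit of 19.97-fold.

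ECs of the 2 libraries differed in 3 of 6 judged members, against 25.3% of 9606 genes (11.8% higher in Tie2-GFP, 13.5% lower). Rgs16 was 3.06-fold higher in Tie2-GFP ECs (2.63 to 3.59), Rgs5 5.32-fold lower (5.00 to 5.65) and Rgs4 2.57-fold lower (1.52 to 4.23), while Rgs2, Rgs3 and Rgs12 stayed within 2-fold. The mural check markers moved the same way as Rgs5: all 6 were found in both classes and summed to 176.9 CPM in Tie2-GFP ECs, from 0 to 60 UMIs in a barcode, and to 1049 CPM in NG2-DsRed ECs, from 0 to 41. Restricted to ECs with at most 1 mural gene, the log2 ratio was 2.02 (1.59 to 2.48) for Rgs16 and -4.03 (-4.26 to -3.80) for Rgs5, so neither shrank, and Rgs4 was left with 3 and 5 UMIs. The mural check markers still differed there, at 18.4 CPM in the 344 Tie2-GFP and 251.6 CPM in the 25 NG2-DsRed ECs, and their part in the result was not tested. Reporter line, batch, software version and depth differed with the library and cannot be told apart.

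Within ECs, Rgs5 was higher with each further mural gene in both libraries and Rgs4 in the Tie2-GFP library. In Tie2-GFP, Rgs5 was 57.4 CPM in 336 ECs with 0 mural genes, 1282 CPM in 8 with 1, 3018 CPM in 6 with 2 and 5566 CPM in 18 with 3. The NG2-DsRed ECs gave 1309, 2359, 4082 and 5178 CPM. The steps were alike in direction, but even the 16 NG2-DsRed ECs with 0 mural genes stood far above their Tie2-GFP counterparts, with Rgs5 in 11 of them. Rgs4 was 0.722 CPM (2 UMIs) in Tie2-GFP ECs with 0 mural genes and 170.0 CPM (52 UMIs) in those with 3, while the NG2-DsRed ECs had 0 UMIs with 0 mural genes and from 54.9 to 73.3 CPM with more. Rgs16 rose less, from 992.9 to 1709 CPM in Tie2-GFP, and Rgs3 went from 115.6 to 62.1 CPM. ECs with 2 or 3 mural genes were also deeper in Tie2-GFP (median 17598.5 against 7264.5 UMIs).

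**Figure D5:**
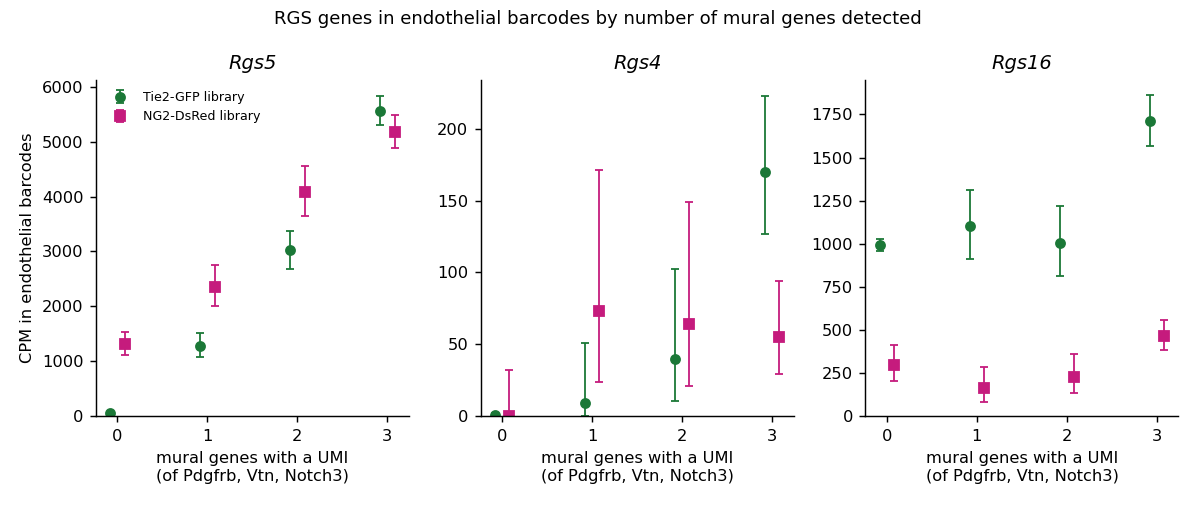
CPM of Rgs5, Rgs4 and Rgs16 in ECs by how many of Pdgfrb, Vtn and Notch3 had a UMI, with exact Poisson 95% intervals. Circles are the Tie2-GFP library (336, 8, 6 and 18 barcodes) and squares the NG2-DsRed library (16, 9, 9 and 20 barcodes). Rgs5 climbs in both libraries, from 57.4 and 1309 CPM to 5566 and 5178 CPM.

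Measured per UMI of the 6 mural check markers, Rgs5 stood higher in ECs than in mural cells of the NG2-DsRed library. There were 3.56 Rgs5 UMIs per marker UMI (3.22 to 3.93) in NG2-DsRed ECs and 2.04 (1.91 to 2.17) in mural barcodes of that library. Tie2-GFP ECs gave 3.80 (3.45 to 4.19) with at least 2 mural genes and 5.66 (4.22 to 7.73) with at most 1. The latter rested on 53 marker UMIs in 17 of 344 barcodes. The 2 Tie2-GFP mural barcodes held 119 Rgs5 UMIs and 18 marker UMIs. That is more Rgs5 per marker UMI than in ECs of that library, on too few barcodes to set an order. Rgs4 showed no fixed order, at 0.0441 UMIs per marker UMI (0.0277 to 0.0668) in NG2-DsRed ECs and 0.0685 (0.0552 to 0.0841) in mural barcodes, with intervals that overlap. In all Tie2-GFP ECs it stood higher, at 0.102 (0.0763 to 0.133). With at most 1 mural gene, Rgs4 was 0.109 on 5 UMIs in NG2-DsRed ECs and 0.0566 on 3 UMIs in Tie2-GFP ECs. Kcnj8 and Abcc9, both among these markers, were themselves lower in contractile barcodes. Rgs5 stood at 2.42 UMIs per marker UMI in contractile and 1.70 in non-contractile mural barcodes. The class rules use mural genes, so they bear on how many marker UMIs a class holds. Per UMI of the 6 endothelial check markers, Rgs16 stood at 0.159 (0.106 to 0.230) in NG2-DsRed mural barcodes and 0.102 (0.0867 to 0.119) in ECs. Rgs3 stood at 0.0625 (0.0327 to 0.109) and 0.0295 (0.0218 to 0.0390), and the intervals overlap for both genes. The source of the Rgs5 in ECs, and of the Rgs16 and Rgs3 in mural barcodes, was not tested.

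ECs with more arterial genes and ECs with more venous genes carried the same leading member. A lead of 1 gene was enough for either group, so these are leanings and not vessel types. In the study, scores of arterial, venous and capillary genes did not separate its EC clusters. Among Tie2-GFP ECs with at most 1 mural gene, 206 had more arterial than venous genes, 54 more venous and 84 as many of each, out of 7 genes each. Rgs16 was 1034 CPM (986 to 1083) in the arterial-leaning, 721 CPM (648 to 800) in the venous-leaning and 1107 CPM (1030 to 1189) in the remaining barcodes, so the venous-leaning level was the lowest. Rgs5 was lowest there too, at 36.1 CPM against 90.9 and 186.7 CPM. Rgs3 ranged only from 96.3 to 125 CPM and Rgs12 from 28.0 to 36.5 CPM.

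Most ECs and mural cells carried more than 1 member. The median number of members per barcode was 2 in Tie2-GFP ECs, 3 in NG2-DsRed ECs, 2 in mural and 0 in intermediate barcodes. In ECs with at most 1 mural gene it was 2 in both libraries. These counts were not thinned to 1 depth. At least 1 member was found in 336 of 368 Tie2-GFP ECs. Rgs16 was found in 181 of the 207 Tie2-GFP ECs with Rgs3 (87.4%, and 59.5% of those with Rgs16). These shares are near those over all 368 ECs, 82.6% with Rgs16 and 56.25% with Rgs3. Rgs5 was found in 17 of the 19 Tie2-GFP ECs with Rgs4. Of the 59 Rgs4 UMIs in these ECs, 56 lay in barcodes with at least 2 mural genes and 3 in the others. All 42 mural barcodes with Rgs4 carried Rgs5, which every mural barcode did, and 6 of the 42 carried Rgs16, which 18 mural barcodes did in all.

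The genes most like each member were sought first over the 6 class-by-library groups, which come from only 2 libraries, so high correlations (Pearson, of log2(CPM + 10)) are common among the 4396 genes ranked. Dgkz, a diacylglycerol kinase that clears the lipid second messenger of Gq signalling, ranked first for Rgs5 (r = 0.9997), before Amotl1 and Tnfaip1. Lamb2, a basement membrane laminin chain, led for Rgs4 (r = 0.998) before Epb41 and Nbeal1, and Serpinb9 for Rgs16 (r = 0.998) before Dst and Msn. For Rgs3 the 3 leading genes were Map4k2, Clic4 and Tmsb10, for Rgs12 Ccar1, Ppig and Mtmr6, and for Rgs2 Rnf19a, Tnrc18 and Tor1aip2.

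Over single barcodes the likenesses were weaker, and depth is shared by all points. In the 368 Tie2-GFP ECs the genes most like Rgs16 were Ier3 (r = 0.507), Pim3 (0.491) and Zfp36 (0.470), of which Ier3 and Zfp36 stand in the list of 12 early response genes that cell dissociation can induce, and the summed list had r = 0.299. Early response genes summed to 27697 CPM in Tie2-GFP ECs, 37362 CPM in NG2-DsRed ECs, 24525 CPM in mural and 2639 CPM in Tie2-GFP intermediate barcodes. In the 94 mural barcodes Rgs16 had r = 0.310 with the same sum. The part of this response in the Rgs16 level was not tested. In the 94 mural barcodes Vtn, a gene of the mural rule, ranked first for Rgs5 (r = 0.502), Steap4 had r = 0.432, and r was -0.302 with the early response sum. For Rgs4 in mural barcodes (Luzp1, Cbx5, Gigyf1), and for Rgs3 (Sox13, Tcf4, Ralgapa1) and Rgs12 (Rgl2, Spred1) in Tie2-GFP ECs, r reached 0.400 at most, which in counts as sparse as these is no finding.

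The vessel receptors that could be judged differed between mural cells and ECs, and which G proteins each one acts on was not measured. A receptor found mainly in 1 class reaches the minimum of 20 UMIs through that class, so these counts too are descriptions. The receptor list was also chosen with earlier results of these data known. Of 33 listed receptors 9 had 20 UMIs over both NG2-DsRed classes, and 7 of these were at least 2-fold higher and 2 lower in mural cells, with a median log2 ratio of 2.43 against 0.09 for all genes, of which 16.2% were higher and 14.2% lower. Without the ECs with at least 2 mural genes 6 were higher and 2 lower of 8 judged, with 22.6% and 15.1% of 4631 genes. Ednra, a receptor of the constrictor endothelin, was 544.0 CPM in mural cells and 82.4 CPM in ECs (log2 ratio 2.72, 2.23 to 3.25). P2ry14, a receptor of UDP-glucose, followed at 343.9 and 56.3 CPM, S1pr3 at 300.1 and 36.2 CPM and the serotonin receptor Htr1b at 184.5 and 34.2 CPM. On the EC side stood S1pr1, a Gi-coupled receptor of sphingosine phosphate, with 1 UMI in mural cells and 528.4 CPM in ECs, and Lpar6 with 1 UMI and 130.6 CPM. Tie2-GFP ECs had 391.3 CPM of S1pr1 and 7.61 CPM of Ednra.

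Some of the judged effectors also differed between mural cells and ECs, and the G protein subunits less so. The same limit holds for these counts. Of 14 effectors 11 were judged, 5 higher and 2 lower in mural cells (16.2% and 14.2% of all genes), with a median log2 ratio of 0.74. Abcc9 and Kcnj8, among the 5 higher, had been listed as mural markers, so their direction adds nothing to the count. Without the ECs with at least 2 mural genes 5 were higher and 1 lower of 9 (22.6% and 15.1% of all genes). Abcc9 and Kcnj8, the 2 subunits of the vascular ATP-sensitive potassium channel and also mural check markers, stood at 756.6 and 606.5 CPM in mural cells and 118.5 and 84.4 CPM in ECs, and Adcy6, a cyclase inhibited by Gi, at 262.6 and 56.3 CPM. Between contractile and non-contractile mural cells Abcc9 had a log2 ratio of -1.99 (-2.45 to -1.56), Kcnj8 -1.70 (-2.18 to -1.24) and P2ry14 -1.31 (-1.92 to -0.72). None of the 3 RGS members that could be judged there moved by 2-fold, and the other members had too few UMIs to be judged. Of 13 G-alpha genes 7 were judged and 2 of 7 passed 2-fold, near the 30.4% of all genes, both of them lower in mural cells. These were Gnai2 (687.8 against 1515 CPM) and Gnaq (65.7 against 146.7 CPM), while Gnas was 1235 and 1201 CPM. Without the ECs with at least 2 mural genes Gnai3 was higher as well, so that 3 of 7 passed, against 37.7% of all genes. Of 15 G-beta and G-gamma genes 7 were judged and 0 passed 2-fold with all ECs, while without those ECs Gnb4 was higher and Gng2 lower. Gng11, the one with the highest level, was 1157 and 900.1 CPM in mural cells and all ECs.

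Of the 23 other RGS-domain genes listed, 7 reached 20 UMIs over mural cells and ECs of the NG2-DsRed library, and 2 of 7 were higher in mural cells, where 16.2% of all genes were higher and 30.4% differed either way. Without the ECs with at least 2 mural genes 3 were judged and Grk3 alone was higher, with 22.6% of all genes higher. Grk3, a receptor kinase with an RGS domain, had 109.4 CPM (35 UMIs) in mural cells and 12.1 CPM (6 UMIs) in ECs. The other was Snx13, a sorting nexin, at 50.02 CPM (16 UMIs) and 18.1 CPM (9 UMIs). Akap10, an anchor of protein kinase A, was 37.5 and 12.1 CPM on 12 and 6 UMIs, under the minimum. Rgs1, Rgs7, Rgs13, Rgs17, Rgs20, Rgs21 and Rgs22, 7 genes, had 0 UMIs in every class of both libraries. Against Tie2-GFP intermediate cells, Rgs19 (18.0 against 4.14 CPM) and the kinases Grk5 (34.7 against 4.97 CPM) and Grk2 (43.5 against 19.9 CPM) were higher in ECs, and Snx14 (14.3 against 45.6 CPM) lower.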

How the data were processed

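Cells of the stria vascularis were profiled with a droplet 3′ assay, and the authors deposited 1 gene-by-barcode matrix of UMI counts per library, unnormalised. The submitters' processing notes name bcl2fastq 2.20.0.422 and the mm10 build, and the matrix headers carry software version 7.0.0 (Tie2-GFP) and 3.0.0 (NG2-DsRed). Whether intronic reads were counted is not given in the sources used here. Endothelial and mural barcodes had 200 to 6000 genes and 200 to 30000 UMIs (Tie2-GFP) or 200 to 5000 genes and 200 to 20000 UMIs (NG2-DsRed), at most 5% mitochondrial and 40% ribosomal UMIs. Intermediate barcodes were spared the mitochondrial limit. Barcodes meeting 2 class rules were left out. No barcode was removed as a doublet, and Scrublet (scanpy 1.11.5) served as an alternative, which marked 7 NG2-DsRed and 0 Tie2-GFP barcodes.

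Summed counts of a class were given as CPM with exact Poisson intervals, shares of barcodes with Clopper-Pearson intervals and ratios with conditional binomial intervals (Python 3.11.15, numpy 2.4.6, scipy 1.17.1, pandas 2.3.3, matplotlib 3.10.9). Shares were also computed with each barcode thinned to 2575 UMIs, shallower barcodes left out. With 1 library per genotype no p-value was computed, and a gene was called different at 2-fold with at least 20 UMIs over both classes, a class at 0 being set to 3 UMIs. The calculation was tested on simulated counts. All members were named. Of other listed genes those past 2-fold on at least 50 UMIs, or among the 3 with the highest CPM of their list, could be named. The members and all lists were chosen with earlier results of these data known. Alternatives changed the class rules, limits, fold, minimum, denominators and weights, or left out barcodes. A few genes among those most like a member are not reported here.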

Additional observations from a re-analysis of the deposited data

Results flagged for a closer look

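Rgs4 was found in barcodes of no class, a group that includes barcodes that failed a limit. In the Tie2-GFP library, 10 barcodes of no class that carried at least 3 of 5 marginal-cell markers (marginal cells are the epithelial cells that secrete potassium into the endolymph) all had Rgs4, with 63 UMIs and 323.7 CPM (249 to 414), close to the 306.4 CPM of NG2-DsRed mural cells and against 1.04 CPM in Tie2-GFP ECs with at most 1 mural gene. These barcodes had a median of 19416 UMIs, 591 UMIs of marginal markers, 0 UMIs of all 6 mural check markers, and 0 UMIs of Rgs3. Rgs4 thus stood there without any mural check marker. Beyond the levels set side by side here, no 2-fold count or ratio of the main comparisons uses these barcodes.

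The 2 mural barcodes of the Tie2-GFP library held 119 Rgs5 UMIs, or 17729 CPM (14687 to 21216), against 9117 CPM in the 94 mural barcodes of the NG2-DsRed library. They also held 2 Rgs4 UMIs and 0 Rgs16 UMIs. They were too few to enter a comparison, and the difference between libraries was not tested.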

How the results depend on the processing

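Leaving out the barcode with most UMIs and, for gene lists, the ECs with at least 2 mural genes were alternatives chosen after seeing the data. The number of members past 2-fold stayed within 1.5 times in 56 of 58 recounts. At a 4-fold threshold 1 member passed between mural cells and ECs (Rgs4) and 1 between ECs of the libraries (Rgs5), by the threshold's own construction. Of 371 recomputed log2 ratios, 346 moved by less than their counting error, 24 moved further and 1 of the called ratios reversed: Rgs2 in ECs against intermediate cells of the Tie2-GFP library, from 1.77 to -0.34 with the mitochondrial limit on every class, which left 6 intermediate barcodes. Leaving out ECs with at least 2 mural genes and that mitochondrial limit accounted for 7 moved ratios each. Rgs5 in mural against intermediate cells fell from 10.12 to 5.19 when the 2 barcodes meeting both rules were kept. Among the uncalled ratios that changed sign were Rgs4 in ECs against intermediate cells of the Tie2-GFP library (from 0.74 to -3.37 without the ECs with at least 2 mural genes and to -0.52 with each barcode weighted equally), Rgs2 between contractile and non-contractile cells (from -2.50 on 11 UMIs to 0.87 with contractile counted from 1 UMI), Rgs5 there (from -0.01 to 0.19 with all 3 mural genes required) and Rgs16 there (from 0.29 to -0.61 without the barcode with most UMIs in each class and to -0.30 with contractile counted from 1 UMI). Thinning moved 18 of 49 shares. No paired analysis was possible because each genotype is 1 library and no test between samples was made. With 94 mural and 54 endothelial barcodes in NG2-DsRed, Rgs2, Rgs10 and Rgs12 were limited by depth.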

Other observations

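Barcodes of no class include those that failed a limit or met 2 class rules, and no cell type was assigned to them. Within all limits were 399 of the 633 Tie2-GFP and 165 of the 201 NG2-DsRed barcodes. Some barcodes of no class also carried Rgs5. In the NG2-DsRed library 20 of 30 did, with 716 UMIs and 4211 CPM, and in the Tie2-GFP library 7 of 179, with 373 UMIs. Rgs4 was spread more widely, in 33 of the 179 Tie2-GFP barcodes of no class (147 UMIs, 157.3 CPM), of which 84 UMIs lay in barcodes with fewer than 3 marginal markers.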
